A study of Homo sapiens with 9 samples.

Results

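The transcripts of the human mitochondrial genome were followed in HSC-3 cells, an established oral squamous cell carcinoma line, before, early in and after long exposure to apatinib, a tyrosine kinase inhibitor aimed mainly at VEGFR2. All rows of the deposited gene table placed on chromosome MT were taken, 37 of 60612 genes. They hold 13 protein genes, 2 rRNA genes and 22 tRNA genes, all with counts in every library. The 9 libraries fall into WT, the parental line, MPTN24, read here as the line given apatinib for 24 h, and MPTN, read here as the line made resistant by culture in apatinib, with 3 libraries each. The reading of MPTN24 rests on its number and that of MPTN on the study's description, since the labels do not spell either name out. All groups share the same line. The apatinib dose, the presence of drug when MPTN was harvested, the number of clones in the resistant line and the origin of the replicates are not given in the sources used here. Below, treated means MPTN24 and MPTN together, and for MPTN it does not mean that drug was present at harvest. If replicates are not separate cultures, the p-values below measure technical spread.

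The human mitochondrial genome is a small circle present in many copies per cell. It encodes subunits of the respiratory chain complexes I, III, IV and V, the rRNAs of the mitochondrial ribosome and the tRNAs that this ribosome uses. Each strand is transcribed as a long precursor by POLRMT with TFAM and TFB2M, and tRNAs that lie between the other genes are cut out to release them. The levels of the single RNAs then depend on processing and decay as well as on transcription, and every protein needed for these steps is imported from nuclear genes. In bulk RNA, fewer mitochondrial genomes and less RNA per genome cannot be told apart.

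The sequences below are examples of sites at which neighbouring rows share bases or abut, so that a count may belong to either. Those of the tRNA genes beside the rRNA genes are also given. Not shown are the overlaps of MT-TI with MT-TQ (3 bases), MT-TC with MT-TY (1 base) and MT-ATP6 with MT-CO3 (1 base). Other abutting rows, such as MT-ND5 and MT-ND6, are not shown either. The sequences come from the GENCODE 29 transcripts and GRCh38, chromosome MT, and are given 5′ to 3′. First is the end of MT-CO1 with the adjoining interval of MT-TS1, read on the strand of MT-CO1 (MT:7406-7514, plus strand), with the MT-TS1 interval in capitals. MT-TS1 itself lies on the minus strand and its bases are the reverse complement. Next come MT-ATP8 (MT:8366-8572, plus strand), with the 46 bases it shares with MT-ATP6 in capitals, and the last 60 bases of MT-ND4L (MT:10707-10766, plus strand), with the 7 bases it shares with MT-ND4 in capitals.
MT-CO1 end and MT-TS1 interval: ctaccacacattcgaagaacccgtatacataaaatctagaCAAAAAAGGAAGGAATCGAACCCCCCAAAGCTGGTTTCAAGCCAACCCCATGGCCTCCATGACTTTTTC
MT-ATP8: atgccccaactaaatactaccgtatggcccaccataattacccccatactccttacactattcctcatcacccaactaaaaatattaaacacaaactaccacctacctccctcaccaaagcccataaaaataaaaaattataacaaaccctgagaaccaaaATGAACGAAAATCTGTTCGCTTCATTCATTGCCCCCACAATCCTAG
MT-ND4L end: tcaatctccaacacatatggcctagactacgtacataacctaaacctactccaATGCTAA

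The tRNA genes MT-TF (MT:577-647), MT-TV (MT:1602-1670) and MT-TL1 (MT:3230-3304) flank the rRNA genes on the plus strand with 0 bases between tRNA and rRNA.
MT-TF: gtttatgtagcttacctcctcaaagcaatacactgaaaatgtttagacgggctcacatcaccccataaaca
MT-TV: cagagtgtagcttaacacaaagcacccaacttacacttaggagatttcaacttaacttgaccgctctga
MT-TL1: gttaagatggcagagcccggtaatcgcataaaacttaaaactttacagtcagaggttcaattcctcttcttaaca

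Libraries held 60383313 to 98890929 estimated counts, of which 1876309 to 5070145 were mitochondrial. The 95% Wilson interval of a library's mitochondrial share was at most 0.0117 percentage points wide and covers counting error only. A sequenced fragment may add several of these counts, since 6716 values of the table equal 4 while 4548 equal 3 and 3190 equal 5, so true counting intervals are wider. The summed level of 6 epithelial markers was 9209 to 13884 CPM, counts scaled to a fixed library total (marker sums are without TMM factors, and the CPM of genes below include them), and 4 of 4 leukocyte markers had 0 counts in every library. The 2 endothelial markers summed to at most 0.159 CPM and the 3 fibroblast markers to 1.06 to 2.68 CPM. WT 1 stood apart from WT 2 and WT 3. Its 7 immediate early genes summed to 509 CPM against 1909 and 1845, and its epithelial markers to 9209 CPM against 13834 and 13884. All 6 treated libraries had 9298 to 9687 CPM of the epithelial markers, near WT 1. These sums are mostly KRT5 and KRT14, which with TP63 and CDH1 were lower in WT 1 than in WT 2 and WT 3. EPCAM, at 122 CPM in WT 1, lay between the other WT libraries and above all treated ones (at most 102 CPM). ITGA6 was highest in WT 1, at 743 CPM, against at most 537 CPM in treated libraries. The immediate early genes summed to 694 to 807 CPM in MPTN24 and 959 to 1195 CPM in MPTN, between WT 1 and the other WT libraries. Single genes of this list did not all keep that order. FOSB, DUSP1 and ATF3 were lower in every MPTN24 library than in WT 1. JUN had 179 to 189 CPM in WT and 231 to 298 CPM in MPTN. The part of these differences in the results below was not tested, and values without WT 1 are given where the call of a mitochondrial gene against WT changes.

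Mitochondrial transcripts took a larger share of all counts at 24 h than in WT. The share was 4.74% in WT 1, 2.72% in WT 2 and 3.02% in WT 3. It was 5.73%, 5.04% and 5.52% in MPTN24 1, 2 and 3, so every MPTN24 library lay above every WT library. In MPTN 1, 2 and 3 it was 4.66%, 5.10% and 5.13%, and MPTN 1 lay just below WT 1. The means were 3.49% ± 1.09 in WT, 5.43% ± 0.35 in MPTN24 and 4.96% ± 0.26 in MPTN (SD, n = 3 each). The exact permutation test (two-sided) gave p = 0.1 for MPTN24 against WT, the smallest value that 3 against 3 libraries allow, p = 0.2 for MPTN against WT and p = 0.3 for MPTN against MPTN24. Differences were 1.94 points for MPTN24 and 1.47 points for MPTN against WT, and 2.56 and 2.10 points without WT 1. None of these passed 0.05.

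The larger share lay in the protein genes. They took 2.55% ± 0.87 of all counts in WT, 4.39% ± 0.30 in MPTN24 and 4.04% ± 0.23 in MPTN, and the WT libraries overlapped neither other group. The rRNA genes took 0.927% ± 0.212, 1.02% ± 0.05 and 0.905% ± 0.059, and all groups overlapped. The tRNA rows together never exceeded 0.018%. By mean counts, which favour long genes, MT-CO1 ranked 5 among all genes in WT and 1 in both MPTN24 and MPTN, while MT-RNR2 ranked 2 in WT, 3 in MPTN24 and 4 in MPTN.

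**Figure D1:**
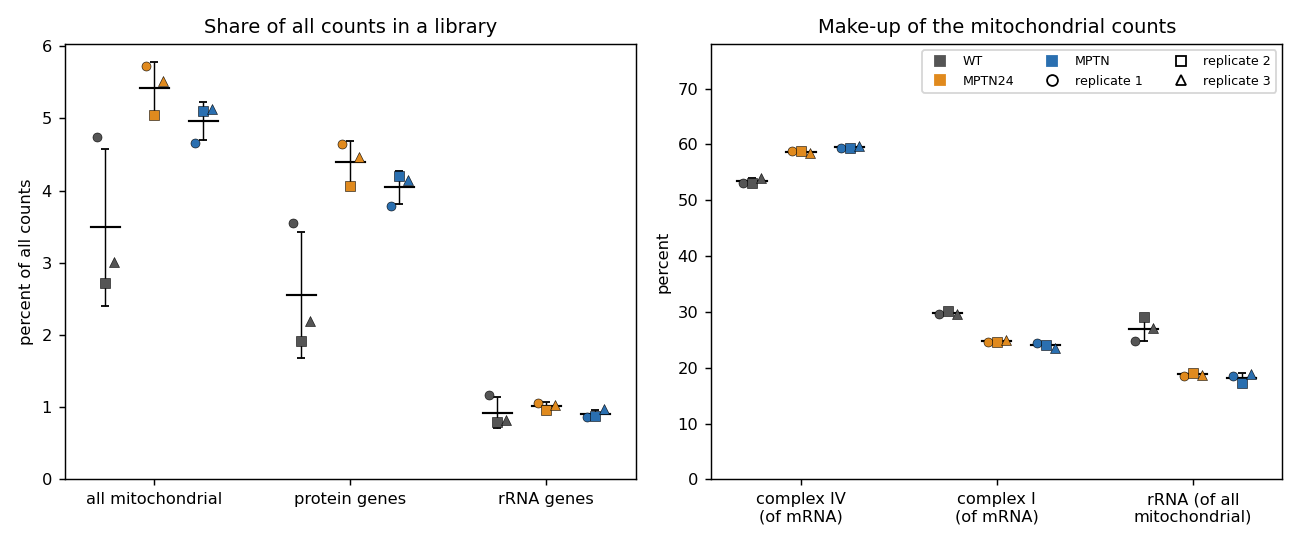
Left, percent of all counts per library for all mitochondrial genes, the protein genes and the rRNA genes; right, percent of mitochondrial mRNA counts from genes of complexes IV and I, and rRNA as percent of mitochondrial counts. Points are libraries, bars the mean ± SD of 3. In the left panel WT 1, at 4.74%, sits with MPTN, while in the right panel it sits with the other WT libraries, at 29.6% for complex I.

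Gene by gene, 7 of the 37 mitochondrial genes rose and 3 fell at 24 h against WT in edgeR's quasi-likelihood test (adjusted p under 0.05 by Benjamini-Hochberg over 16990 genes tested, used throughout). Of all genes tested, 11.1% rose and 12.1% fell. The median log2 change was 0.32 over the mitochondrial genes, 0.61 over the 13 protein genes and 0.01 over all genes. In MPTN against WT, 4 rose and 6 fell, where 18.3% of all genes rose and 18.1% fell, so the shares of mitochondrial genes called lay below or near these backgrounds. Medians were -0.40 over the mitochondrial genes, 0.43 over the protein genes, -0.63 over the tRNA genes and 0.02 over all genes. In MPTN against MPTN24, 0 rose and 3 fell, all tRNA genes, where 7.85% of all genes rose and 6.7% fell. At an unadjusted p under 0.05 there were still 0 rises, with 10 falls, and DESeq2 and limma gave 0 rises as well. These contrasts share libraries (WT in the first pair, MPTN24 and MPTN with the third), so their values are given side by side only.

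The counts depended on WT 1. Without it, 19 mitochondrial genes rose and 2 fell at 24 h (12.9% and 14.4% of all genes), and 10 rose and 3 fell in MPTN against WT (18.4% and 18.7%). MPTN against MPTN24 then gave 0 rises and 10 falls (10.5% and 9.81% of all genes), whereas leaving out any MPTN or MPTN24 library left 1 fall there, MT-TV. WT 1 has no value in that contrast and enters it through the fit shared over the 3 groups. MT-TL1 changed by -1.092 ± 0.405 with all libraries and -1.091 ± 0.136 without WT 1. MT-RNR2, MT-TY and MT-ND6 also fell there without WT 1 (edgeR adjusted p = 0.031, 0.0063 and 0.012). With only the 2 groups fitted 12 fell, beside 1671 of all 16405 genes tested. Without WT 3 or without MPTN24 1 only 1 gene, MT-CO2, rose at 24 h, and without WT 3 or MPTN 3 only MT-CO2 rose in MPTN. Leaving out other libraries gave 2 to 6 rises at 24 h and 2 to 4 in MPTN, and the gene paragraphs name the libraries on which each call rests. Over the fits with a library left out, 1022 to 2286 of all genes rose at 24 h and 2468 to 3251 in MPTN. In MPTN against MPTN24, 569 to 832 of all genes fell on leaving out any MPTN or MPTN24 library.

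**Figure D2:**
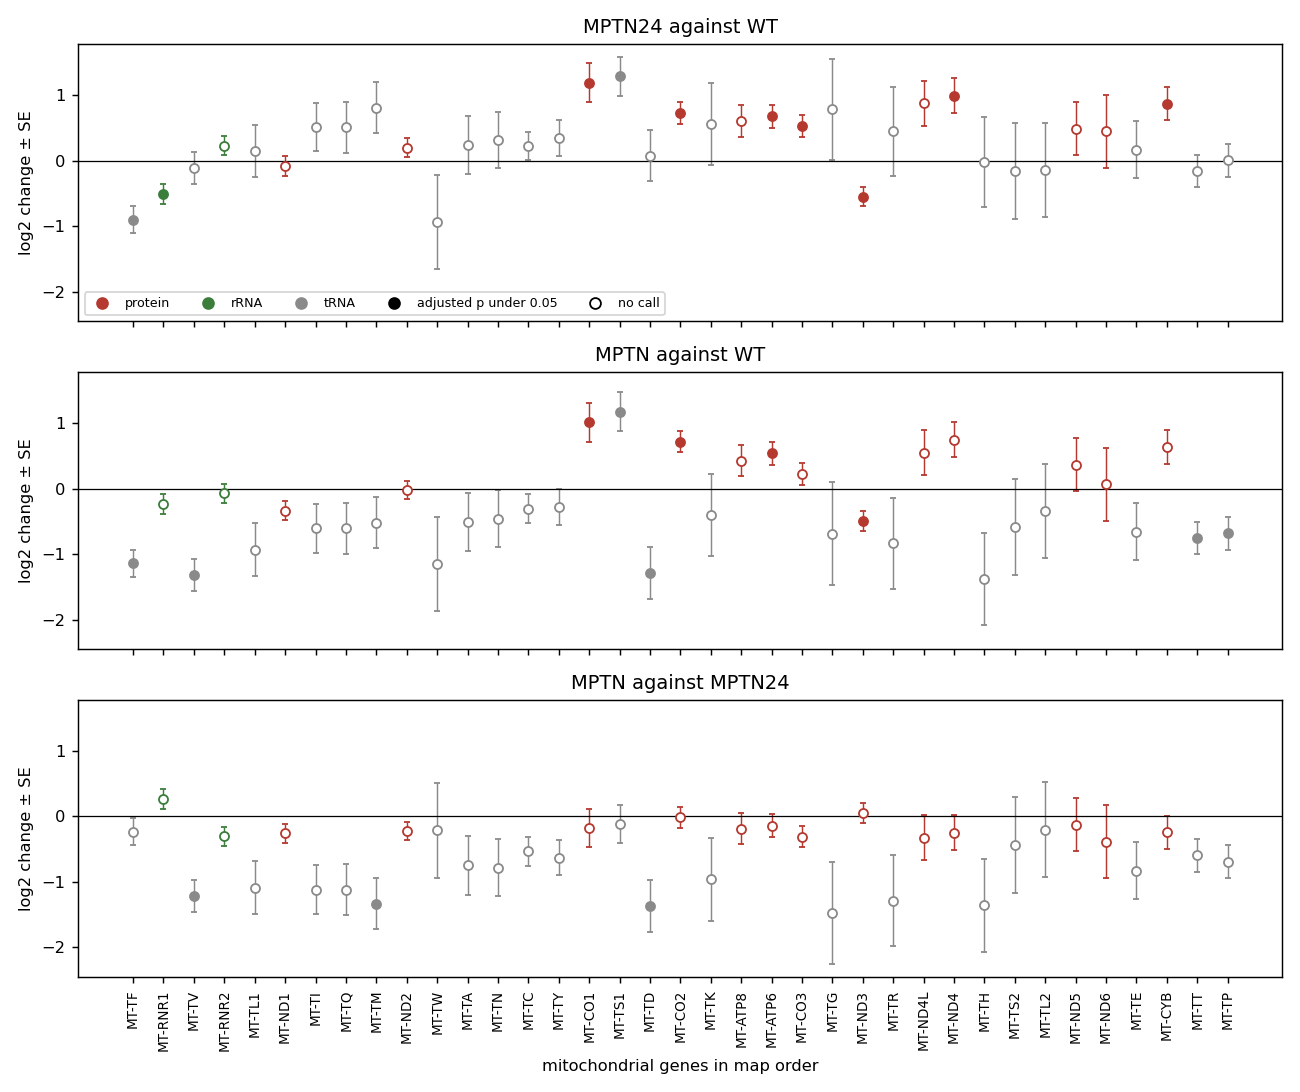
Log2 change ± SE from edgeR (y axis) for the 37 mitochondrial genes in map order (x axis), in 3 comparisons; filled symbols have an adjusted p under 0.05. In the top panel MT-TS1 at 1.29 and MT-CO1 at 1.195 lie highest among the filled symbols, and the filled symbols below 0 are MT-TF at -0.90, MT-ND3 at -0.55 and MT-RNR1 at -0.51.

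Complex IV, cytochrome c oxidase, passes electrons to oxygen, and its catalytic core is encoded by MT-CO1, MT-CO2 and MT-CO3. MT-CO2 (ENSG00000198712, MT:7586-8269, plus strand), which receives the electrons from cytochrome c, rose in both treated groups. Its level was 4637, 2982 and 3154 CPM in WT 1, 2 and 3, then 6579, 5441 and 5883 CPM in MPTN24, and 5059, 5819 and 6868 CPM in MPTN. No WT library reached the lowest treated library. The log2 change was 0.73 ± 0.16 at 24 h (SE, edgeR adjusted p = 0.0065) and 0.72 ± 0.16 in MPTN (adjusted p = 0.0034), and 20 of 20 alternative settings kept each call. MPTN and MPTN24 overlapped (log2 difference -0.01 ± 0.16, adjusted p = 0.98).

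MT-CO1 (ENSG00000198804, MT:5904-7445, plus strand) encodes the subunit with the haem and copper site where oxygen is reduced. Its level was 10268, 4058 and 4937 CPM in WT 1, 2 and 3, with WT 1 above the other WT libraries by more than all treated libraries differed among themselves. MPTN24 had 15639, 13540.4 and 14928 CPM and MPTN had 12504, 13860.3 and 12565 CPM, all above WT 1. It rose 2.29-fold at 24 h (log2 1.195 ± 0.296, edgeR adjusted p = 0.02) and 2.02-fold in MPTN (1.02 ± 0.30, adjusted p = 0.024). The 24 h value missed the threshold on leaving out WT 3 (adjusted p = 0.052), MPTN24 1 (0.069), MPTN24 3 (0.053) or MPTN 3 (0.054), and the MPTN call without WT 3 (0.067) or any of MPTN 1 (0.067), 2 (0.068) and 3 (0.092). Both were lost with only the 2 groups fitted (0.076 and 0.055) and with no filter (0.072 and 0.087), and both were larger without WT 1 (1.71 and 1.53).

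MT-CO3 (ENSG00000198938, MT:9207-9990, plus strand), the third core subunit, rose at 24 h only by the call. It had 4614, 3126 and 3848 CPM in WT, 6300.1, 4803 and 5668 CPM in MPTN24 and 3725, 4368 and 5429 CPM in MPTN. The log2 change was 0.53 ± 0.16 at 24 h (edgeR adjusted p = 0.03), lost without WT 2 (0.13), WT 3 (0.073), MPTN24 1 (0.14) or MPTN24 3 (0.09). In MPTN it was 0.22 ± 0.16 (adjusted p = 0.31), and the MPTN and WT libraries overlapped. The difference between MPTN and MPTN24 was -0.31 ± 0.16 (adjusted p = 0.23).

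Complex I takes electrons from NADH, and 7 of its membrane subunits are mitochondrial. These did not move together. MT-ND3 (ENSG00000198840, MT:10059-10404, plus strand), a small subunit near the quinone site, fell in both groups. It had 572, 588 and 550.5 CPM in WT, the tightest WT values among the complex I genes, then 456, 335 and 379 CPM in MPTN24 and 322, 386 and 508 CPM in MPTN. No treated library reached the lowest WT library. The log2 change was -0.55 ± 0.15 at 24 h (edgeR adjusted p = 0.018) and -0.49 ± 0.15 in MPTN (adjusted p = 0.019), and was -0.55 and -0.49 without WT 1. The 24 h value missed the threshold on leaving out WT 2 (0.055), MPTN24 2 (0.095) or MPTN24 3 (0.071), and the MPTN call without WT 2 (0.052), MPTN 1 (0.085) or MPTN 2 (0.071).

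MT-ND4 (ENSG00000198886, MT:10760-12137, plus strand), a proton-pumping subunit, moved the other way. It had 4164, 1762 and 2089 CPM in WT, 5653, 4959 and 5399 CPM in MPTN24 and 4281, 4622 and 4581 CPM in MPTN, so that no group overlapped another. It rose at 24 h (1.00 ± 0.27, edgeR adjusted p = 0.026) and did not pass in MPTN (0.75 ± 0.27, adjusted p = 0.053). The 24 h value missed the threshold on leaving out WT 3, MPTN24 1, 2 or 3, or MPTN 1 or 3 (0.053 to 0.087). In MPTN, 6 settings, among them the fit without WT 1 (1.22, adjusted p = 2.6e-06), called the rise.

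MT-ND1 and MT-ND2, which follow the rRNA genes on the map, passed the test in neither treated group. MT-ND1 (ENSG00000198888) had 2029, 1309 and 1531 CPM in WT, 1692, 1367 and 1547 CPM in MPTN24, and 1141, 1303 and 1406 CPM in MPTN. Its log2 change was -0.08 ± 0.15 at 24 h and -0.34 ± 0.15 in MPTN (edgeR adjusted p = 0.75 and 0.089), and the second passed without WT 2 (-0.47, adjusted p = 0.025). MT-ND2 (ENSG00000198763) changed by 0.20 ± 0.14 and -0.02 ± 0.14 (edgeR adjusted p = 0.33 and 0.94) and overlapped WT in both groups, and the first passed without WT 1 (0.38, adjusted p = 0.028).

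MT-ND4L, MT-ND5 and MT-ND6 showed how much WT 1 weighs. MT-ND6 (ENSG00000198695, MT:14149-14673), the only protein gene on the minus strand, had 153 CPM in WT 1, where WT 2 and WT 3 reached 37.9 and 39.0 CPM. MPTN24 had 110, 97.9 and 107 CPM and MPTN had 84.3, 87.9 and 69.0 CPM, all between WT 1 and the other WT libraries. With all libraries the log2 change was 0.45 ± 0.56 at 24 h and 0.07 ± 0.56 in MPTN (edgeR adjusted p = 0.63 and 0.94). Without WT 1 it was 1.45 and 1.06 (edgeR adjusted p = 4.1e-06 and 1e-05). MT-ND5 (ENSG00000198786), at 1227, 438 and 442 CPM in WT, followed the same order, with 0.49 ± 0.41 and 0.37 ± 0.41 with all libraries and 1.16 and 1.04 without WT 1. MT-ND6 abuts MT-ND5 on the other strand, with 0 bases between. Strand use in counting is not given, so a count of MT-ND6 may belong to a transcript of MT-ND5. Per 100 counts of MT-ND5, MT-ND6 had 12.5, 8.66 and 8.83 counts in WT, 10.2, 11.6 and 10.3 in MPTN24, then 9.94, 8.84 and 7.89 in MPTN. WT overlapped both other groups, which did not overlap each other. MT-ND4L (ENSG00000212907) gave 0.88 ± 0.35 and 0.55 ± 0.34 (edgeR adjusted p = 0.11 and 0.26), and 1.43 and 1.10 without WT 1.

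Complex III is represented by cytochrome b, MT-CYB (ENSG00000198727, MT:14747-15887, plus strand), which carries electrons from ubiquinol. It had 2818, 1309 and 1420.4 CPM in WT, 3703, 3025 and 3440 CPM in MPTN24 and 2608, 2939 and 3075 CPM in MPTN. It rose at 24 h (0.87 ± 0.25, edgeR adjusted p = 0.034), but of 20 alternatives only 10 kept the call, and leaving out WT 2, WT 3 or any treated library lost it (0.056 to 0.11). In MPTN it gave 0.64 ± 0.25 (adjusted p = 0.077), and MPTN 1 lay below WT 1. This value passed without WT 1 (1.07, edgeR adjusted p = 1e-05), with the replicate block (0.71, adjusted p = 0.05 after rounding) and in both limma fits (adjusted p = 0.016 and 0.013).

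Complex V, ATP synthase, has its proton channel subunit from MT-ATP6 and a small membrane subunit from MT-ATP8. MT-ATP6 (ENSG00000198899, MT:8527-9207, plus strand) had 2717, 1473 and 1745 CPM in WT, 3384, 2946 and 3189 CPM in MPTN24 and 2616, 2955 and 3050.3 CPM in MPTN. It rose at 24 h, without overlap (0.68 ± 0.18, edgeR adjusted p = 0.014), and in MPTN, where MPTN 1 lay below WT 1 (0.54 ± 0.18, adjusted p = 0.028). The first value missed the threshold on leaving out WT 2 (0.056), WT 3 (0.053) or MPTN24 1 (0.064), and the second without WT 2 (0.11), WT 3 (0.098), MPTN 2 (0.076) or MPTN 3 (0.12). MT-ATP8 (ENSG00000228253) gave 0.61 ± 0.24 and 0.43 ± 0.24 (edgeR adjusted p = 0.097 and 0.2), and 0.97 and 0.79 without WT 1. MT-ATP8 counts per 100 of MT-ATP6, its overlapping neighbour, were 25.4 to 28.98 in WT, 23.1 to 27.9 in MPTN24 and 23.4 to 27.7 in MPTN.

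The rRNA genes differed from each other. MT-RNR1 (ENSG00000211459, MT:648-1601, plus strand), the rRNA of the small ribosomal subunit, had 1890, 1186 and 1368 CPM in WT, 1124, 949 and 1052 CPM in MPTN24, and 1115, 1209 and 1453 CPM in MPTN. It fell at 24 h (-0.51 ± 0.15, edgeR adjusted p = 0.03), with all MPTN24 libraries below WT, and gave -0.23 ± 0.15 in MPTN (adjusted p = 0.26), where the groups overlapped. The 24 h value missed the threshold on leaving out WT 1 (-0.29, adjusted p = 0.087), MPTN24 1 (0.064), MPTN24 2 (0.14) or MPTN24 3 (0.087). MT-RNR2 (ENSG00000210082, MT:1671-3229, plus strand), the rRNA of the large subunit, had 10228, 6691 and 6897 CPM in WT, 9910, 8637 and 9455 CPM in MPTN24, and 7043, 7296 and 8308 CPM in MPTN. Its log2 changes against WT were 0.23 ± 0.15 and -0.07 ± 0.15 (edgeR adjusted p = 0.29 and 0.75). Without WT 1 it rose at 24 h (0.46, edgeR adjusted p = 0.0056) and gave 0.15 in MPTN.

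Both rRNAs come from the same precursor. Their ratio within a library, like that of any mitochondrial genes, does not depend on the mitochondrial share. MT-RNR1 gave 18.5, 17.7 and 19.8 counts per 100 of MT-RNR2 in WT, while MPTN24 gave 11.3, 10.99 and 11.1, and MPTN gave 15.8, 16.6 and 17.5. The groups were fully separate, with MPTN24 lowest and MPTN just below WT. These are counts in the libraries, and whether both rRNAs were recovered alike in all groups was not tested. Each comparison gave the smallest exact permutation p, 0.1 (two-sided), adjusted to 0.214 over the 75 sums and ratios compared.

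The tRNA rows had 5 to 8519 counts per library over intervals of 59 to 75 bases. Libraries of this kind recover few molecules as short as a tRNA, and whether the counting used strand is not given in the sources used here, so reads of a tRNA, of an uncut precursor and of a neighbouring transcript cannot be told apart. By mean level, 14 rows had at least 1 CPM (1.19 to 70.8 CPM) and 8 lay at 0.21 to 0.83 CPM. Against MPTN24, all 22 log2 values of MPTN were below 0, and in 18 the MPTN and MPTN24 libraries did not overlap, which 18.1% of all genes tested showed with MPTN lower, and 3 passed the test. Against WT, 21 of 22 were below 0 in MPTN, and 7 of 22 at 24 h. The median over tRNA genes was -0.81 in MPTN against MPTN24, beside 0.01 over all genes.

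MT-TF, the phenylalanine tRNA that opens the plus strand precursor, fell in both groups. It had 10.99, 7.26 and 6.53 CPM in WT, 4.37, 4.25 and 4.64 CPM in MPTN24 and 3.21, 3.78 and 4.26 CPM in MPTN, with every treated library below every WT library. The log2 change was -0.90 ± 0.21 at 24 h (edgeR adjusted p = 0.0076) and -1.14 ± 0.21 in MPTN (adjusted p = 0.00074), and 20 of 20 alternatives kept each call. Without WT 1 it was -0.64 and -0.88.

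MT-TV, the valine tRNA that is also built into the human mitochondrial ribosome, fell in MPTN alone among the calls. It had 12.1, 5.86 and 5.97 CPM in WT, 7.94, 6.34 and 7.98 CPM in MPTN24 and 3.33, 3.16 and 3.11 CPM in MPTN. MPTN lay below all other libraries. The log2 change was -1.32 ± 0.25 against WT (edgeR adjusted p = 0.00099) and -1.21 ± 0.25 against MPTN24 (adjusted p = 0.0054), kept in 20 of 20 alternatives each. At 24 h it was -0.11 ± 0.24 (adjusted p = 0.81), and 0.33 without WT 1.

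MT-TD, the aspartate tRNA, had 2.21, 0.765 and 1.39 CPM in WT, 1.61, 1.57 and 1.42 CPM in MPTN24 and 0.708, 0.713 and 0.365 CPM in MPTN. It fell in MPTN against WT (-1.29 ± 0.40, edgeR adjusted p = 0.021), lost without WT 1 (0.1) or MPTN 3 (0.089), and against MPTN24 (-1.37 ± 0.40, adjusted p = 0.034), lost without any single library of either group (0.062 to 0.13). MT-TM, for methionine, fell against MPTN24 (-1.33 ± 0.40, edgeR adjusted p = 0.037), again lost without any single library of either group (0.08 to 0.11). MT-TT, for threonine, fell against WT in MPTN (-0.75 ± 0.25, edgeR adjusted p = 0.028), lost without WT 1 (0.1), WT 3 (0.065) or any MPTN library (0.056 to 0.089). MT-TP, for proline, gave -0.68 ± 0.25 (edgeR adjusted p = 0.049), a call kept in 8 of 20 alternatives and lost without any library but WT 2 (0.063 to 0.15). MT-TL1, a leucine tRNA, gave -0.94 ± 0.40 in MPTN against WT and -1.09 ± 0.41 against MPTN24 (edgeR adjusted p = 0.11 and 0.12), and its MPTN and MPTN24 libraries did not overlap. The second value passed without WT 1 (-1.09, edgeR adjusted p = 0.00011).

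MT-TS1, a serine tRNA, was with all libraries the only tRNA row that rose. Without WT 1, 7 rose at 24 h, which were MT-TS1, MT-TL1, MT-TI, MT-TQ, MT-TM, MT-TY and MT-TE (edgeR adjusted p at most 0.017). It had 56.0, 20.4 and 35.3 CPM in WT, 96.2, 87.0 and 89.9 CPM in MPTN24 and 79.99, 85.8 and 86.5 CPM in MPTN. The log2 change was 1.29 ± 0.30 at 24 h (edgeR adjusted p = 0.019) and 1.18 ± 0.30 in MPTN (adjusted p = 0.016). The first missed the threshold on leaving out WT 3 (0.068), MPTN24 1 (0.063) or MPTN24 3 (0.052), and the second without WT 3 (0.063) or MPTN 3 (0.06). The MT-TS1 interval abuts MT-CO1 on the other strand, and the human MT-CO1 mRNA is known to run on across it, so the capitals in the first sequence above are part of that mRNA. Per 100 counts of MT-CO1, MT-TS1 had 0.545, 0.502 and 0.715 counts in WT, 0.615, 0.643 and 0.602 in MPTN24, then 0.640, 0.619 and 0.688 in MPTN, and the groups overlapped. MT-TS1 and the MT-CO1 mRNA cannot be told apart in these counts.

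MT-TY, the tyrosine tRNA on the minus strand just before MT-CO1, had 28.5, 11.97 and 15.5 CPM in WT, 27.1, 19.6 and 24.7 CPM in MPTN24, then 13.8, 15.7 and 16.7 CPM in MPTN. Its log2 change was 0.35 ± 0.27 at 24 h and -0.28 ± 0.27 in MPTN (edgeR adjusted p = 0.4 and 0.47), and 0.79 at 24 h without WT 1 (adjusted p = 0.0027). Per 100 counts of MT-CO1 it had 0.278, 0.295 and 0.314 counts in WT, 0.173, 0.144 and 0.165 in MPTN24, then 0.110, 0.113 and 0.133 in MPTN. The groups were fully separate (exact permutation p = 0.1 for each comparison, two-sided, adjusted 0.214 over 75), with MPTN lowest. MT-CO1, the denominator of this ratio, itself rose.

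**Figure D3:**
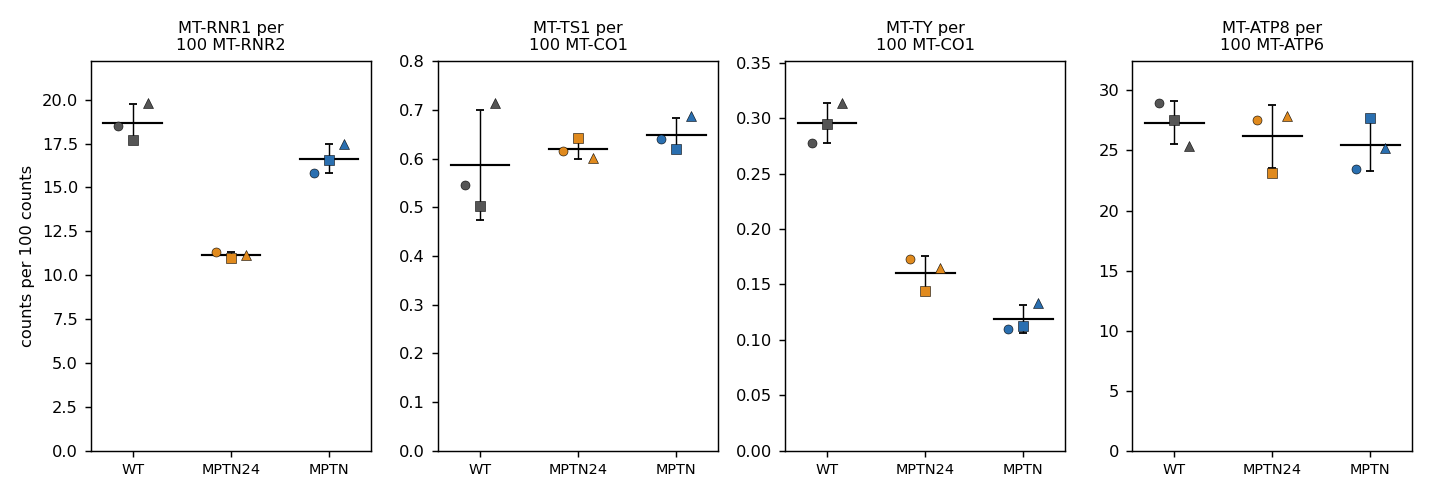
Counts of MT-RNR1 per 100 of MT-RNR2, of MT-TS1 and MT-TY per 100 of MT-CO1, and of MT-ATP8 per 100 of MT-ATP6, for each library (points; bars are mean ± SD of 3; each y axis starts at 0). The groups separate for MT-RNR1, from 10.99 to 11.3 in MPTN24, and for MT-TY, and overlap for MT-TS1 and MT-ATP8.

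The complex I and complex IV sums of the mitochondrial mRNA separated WT from both treated groups with little spread. In both sums WT 1 stayed with the other WT libraries, but its single genes did not. MT-ND1, MT-ND2, MT-ND3, MT-CO2 and MT-CO3 gave smaller shares of the mRNA in WT 1 than in WT 2 and WT 3. MT-CO1, MT-ND4L, MT-ND4, MT-ND5 and MT-ND6 gave larger ones, so opposite shifts lie within these sums. For complex III, WT 1 lay above all other libraries, at 7.67%. Genes of complex I gave 29.6%, 30.2% and 29.6% of the counts of the 13 protein genes in WT 1, 2 and 3, 24.6%, 24.6% and 24.9% in MPTN24, then 24.4%, 24.1% and 23.6% in MPTN. Genes of complex IV gave 53.1%, 53.1% and 54.1% in WT, 58.8%, 58.9% and 58.5% in MPTN24, then 59.4%, 59.4% and 59.8% in MPTN. Complex V gave 9.54% to 9.91% in WT, 8.90% to 9.01% in MPTN24 and 9.002% to 9.31% in MPTN, and complex III 6.43% to 7.67%, 7.49% to 7.64% and 7.25% to 7.40%. The groups did not overlap for complexes I and IV in any comparison. Differences from WT were -5.09 and -5.79 points for complex I and 5.29 and 6.06 points for complex IV, for MPTN24 and MPTN. Each had an exact permutation p of 0.1 (two-sided), the smallest possible, adjusted to 0.214 over 75.

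MT-CO1 alone gave 28.0%, 21.2% and 22.4% of mRNA counts in WT, 32.3%, 33.5% and 33.0% in MPTN24, then 34.9%, 34.2% and 30.2% in MPTN. The shares of a total sum to 100%, so a larger MT-CO1 share lowers the others. The rRNA genes gave 24.7%, 29.1% and 27.1% of all mitochondrial counts in WT, 18.5%, 19.1% and 18.8% in MPTN24, then 18.5%, 17.3% and 19.0% in MPTN, again without overlap between WT and the treated groups.

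Relative to the summed mRNA, of 15 protein and rRNA genes 11 lay below WT at 24 h and 4 above, and of the 14 tRNA rows of at least 1 CPM 12 lay below and 2 above. From the start of the map the ratio to WT was 0.307 for MT-TF, 0.400 for MT-RNR1, 0.549 for MT-TV, 0.670 for MT-RNR2, 0.709 for MT-TL1, 0.536 for MT-ND1 and 0.652 for MT-ND2, and in each the groups did not overlap. The tRNA rows MT-TI, MT-TQ and MT-TM between MT-ND1 and MT-ND2 gave 0.892 to 1.13 and overlapped WT. MT-TC, MT-TY and MT-TN, on the minus strand before MT-CO1, gave 0.672, 0.757 and 0.799, with overlap in MT-TN. From MT-CO1 on, the ratio was above 1 for MT-CO1 (1.39), MT-TS1 (1.48) and MT-ND4 (1.2) without overlap, and for MT-ND4L (1.11) and MT-CYB (1.09) with overlap. It was below 1 without overlap for MT-TD (0.644), MT-ATP8 (0.887), MT-ATP6 (0.927), MT-ND3 (0.380), MT-TT (0.516) and MT-TP (0.582). MT-CO2 (0.946), MT-CO3 (0.815), MT-ND5 (0.886), MT-ND6 (0.961) and MT-TE (0.766) were below 1 with overlap.

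In MPTN the ratios to WT were 0.294 for MT-TF, 0.548 for MT-RNR1, 0.270 for MT-TV, 0.615 for MT-RNR2, 0.509 for MT-ND1, 0.636 for MT-ND2, 1.40 for MT-CO1 and 0.444 for MT-ND3, none overlapping. The tRNA rows of at least 1 CPM other than MT-TS1 gave 0.270 to 0.559. Between MPTN and MPTN24, MT-CO1 (1.00) and MT-ND3 (1.17) overlapped, while MT-RNR1 (1.37) lay higher and MT-TV (0.492), MT-TL1 (0.533), MT-TI (0.522), MT-TQ (0.523) and MT-TM (0.452) lower in MPTN. Over the 29 genes, the smallest exact permutation p of 0.1 (two-sided) adjusts to 0.161 at 24 h, 0.145 in MPTN and 0.161 between them, so none passed.

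**Figure D4:**
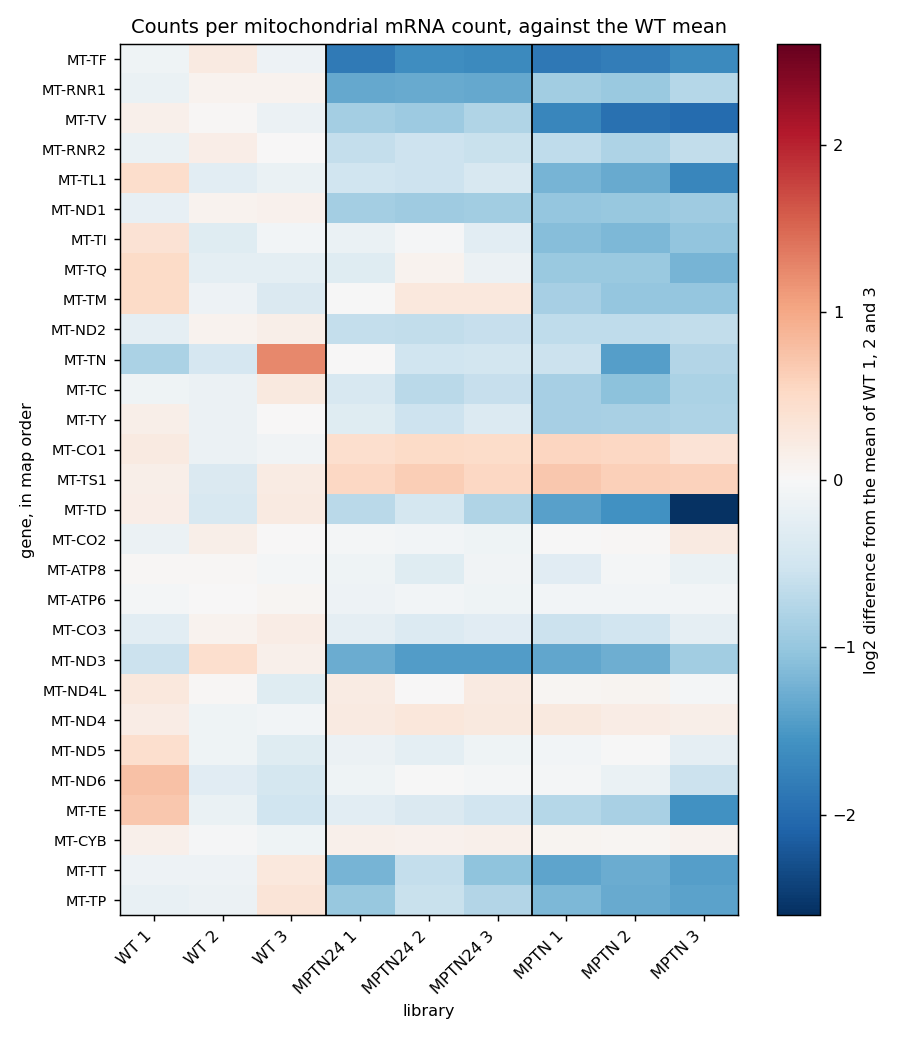
Log2 of each gene's counts over the summed counts of the 13 mitochondrial protein genes, minus the mean of the 3 WT libraries (colour), for 29 genes in map order (rows) and 9 libraries (columns). MT-TF, MT-RNR1, MT-ND1 and MT-ND3 are lower in all 6 treated libraries, MT-CO1 and MT-TS1 higher, and most tRNA rows are lower in MPTN than in MPTN24.

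Copies of mitochondrial genes in the nuclear genome can take up reads of the true transcripts. Of 408 such rows, 372 had 0 counts throughout and 4 had a mean of at least 1 CPM. MTATP6P1 (GRCh38, chromosome 1, 633696 to 634376) differs from MT-ATP6 at 10 of 681 aligned bases (98.5% identical) and had 16.8 counts per 100 of MT-ATP6. Its level was 467, 268 and 291 CPM in WT, 559, 489 and 488 CPM in MPTN24 and 445, 489 and 535 CPM in MPTN, and its WT libraries stand in the same order as those of MT-ATP6. It rose in both groups (0.58 ± 0.17 and 0.52 ± 0.17, edgeR adjusted p = 0.028 and 0.031), calls kept in 12 of 19 alternatives each. MTND2P28 and MTCO1P12, also on chromosome 1, had 3.37 and 0.257 counts per 100 of their gene. MTND4P12 on chromosome 5 had 0.051 and rose at 24 h (1.17 ± 0.32, edgeR adjusted p = 0.019), a call kept in 16 of 19 alternatives. MTRNR2L12 and MTCO3P12, next in level, lay under 1 CPM on average and were not called. Which of these reads come from the nucleus was not tested. Adding the copies to their genes left every count of called mitochondrial genes as it was.

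The nuclear genes that serve the mitochondrial genome were covered by 13 lists with 243 genes, of which 242 were tested. At 24 h, 1 rose and 60 fell, in MPTN against WT 8 rose and 77 fell, and in MPTN against MPTN24 11 rose and 19 fell. Without WT 1 the counts were 5 and 72, 9 and 86, and 18 and 25. The nuclear values share the same libraries and scaling as the mitochondrial ones, and the backgrounds of all genes from the same fits apply. Of all genes tested, 11.1% rose and 12.1% fell at 24 h, and 18.3% rose and 18.1% fell in MPTN against WT. In MPTN against MPTN24, 7.85% rose and 6.7% fell, near the share of list genes that fell there. Without WT 1, 12.9% of all genes rose and 14.4% fell at 24 h, and 18.4% and 18.7% in MPTN against WT. In MPTN against MPTN24, 10.5% and 9.81% did so, the second again near the share of list genes that fell.

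Of the 8 transcription genes, 0 rose and 4 fell at 24 h and in MPTN (medians -0.42 and -0.42). TFAM, which packs the mitochondrial DNA and bends its promoters, had 73.4, 103 and 88.4 CPM in WT, 45.1, 54.8 and 50.7 CPM in MPTN24 and 49.6, 48.8 and 49.7 CPM in MPTN, with no overlap between WT and the treated groups. It fell by 0.82 ± 0.12 on the log2 scale at 24 h (edgeR adjusted p = 0.00063) and by 0.84 ± 0.12 in MPTN (adjusted p = 0.00013). TFB2M, which opens the promoter, changed by -1.05 ± 0.18 and -0.91 ± 0.18 (edgeR adjusted p = 0.0013 and 0.0011). POLRMT, the RNA polymerase, gave 0.16 ± 0.13 and 0.06 ± 0.13 (edgeR adjusted p = 0.45 and 0.79).

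Of the 7 genes of RNA stability, tails and decay, 0 rose and 7 fell at 24 h, and 0 rose and 6 fell in MPTN (medians -0.49 and -0.68), with the same counts without WT 1. LRPPRC, which binds and stabilises mitochondrial mRNAs, had 201, 274 and 248 CPM in WT, 139, 171 and 149 CPM in MPTN24 and 126, 121 and 114 CPM in MPTN, in separate groups. It changed by -0.66 ± 0.12 at 24 h (edgeR adjusted p = 0.0019) and -1.001 ± 0.119 in MPTN (adjusted p = 2.9e-05). MTPAP, the poly(A) polymerase, changed by -0.80 ± 0.11 and -1.15 ± 0.11 (edgeR adjusted p = 0.00049 and 6.5e-06). PNPT1, a ribonuclease of the mitochondrial degradosome, changed by -0.64 ± 0.11 and -0.84 ± 0.11 (edgeR adjusted p = 0.0017 and 8.3e-05).

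Of 14 RNA processing genes, 0 rose and 5 fell at 24 h, and 2 rose and 7 fell in MPTN. TRMT10C, a subunit of the RNase P that cuts the 5′ ends of mitochondrial tRNAs, fell (-0.84 ± 0.14 and -0.78 ± 0.14, edgeR adjusted p = 0.0012 and 0.00066), as did FASTKD5 (-0.57 ± 0.10 and -0.62 ± 0.10, edgeR adjusted p = 0.002 and 0.00041), needed for mRNA ends that no tRNA flanks. FASTK, a form of which is needed for the MT-ND6 mRNA, rose in MPTN (0.62 ± 0.12, edgeR adjusted p = 0.0012), as did PTCD2 (0.44 ± 0.14, adjusted p = 0.023). Of 16 RNA modification genes 4 fell at 24 h and 8 in MPTN, with 0 rises, among them TRMU (-0.54 ± 0.11 and -0.63 ± 0.11, edgeR adjusted p = 0.0032 and 0.00043), which thiolates tRNAs.

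For DNA replication, 3 of 11 fell at 24 h and 6 in MPTN, with 0 rises. TWNK, the replicative helicase, had 53.2, 49.2 and 43.9 CPM in WT, 33.0, 30.4 and 35.4 CPM in MPTN24 and 24.3, 24.7 and 22.3 CPM in MPTN (log2 changes -0.57 ± 0.11 and -1.04 ± 0.11, edgeR adjusted p = 0.0026 and 1e-05). Of 6 biogenesis regulators tested, 1 rose and 4 fell at 24 h, and 1 rose and 5 fell in MPTN. PPARGC1B, a coactivator of mitochondrial biogenesis, fell (-1.21 ± 0.19 and -1.48 ± 0.19, edgeR adjusted p = 0.00085 and 5.1e-05). PPRC1, a related coactivator, fell as well (-0.44 ± 0.10 and -0.87 ± 0.10, edgeR adjusted p = 0.0066 and 2.1e-05). ESRRA, a nuclear receptor that these coactivators bind, rose (0.31 ± 0.10 and 0.35 ± 0.10, edgeR adjusted p = 0.035 and 0.013), a call lost at 24 h without WT 2 or 3, any MPTN24 library or MPTN 2 (0.057 to 0.14) and in MPTN without WT 2 (0.058).

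Of 11 nuclear subunits of complex IV, 0 rose and 1 fell at 24 h (3 fell without WT 1), and 1 rose, COX5B (0.49 ± 0.12, edgeR adjusted p = 0.0059), and 1 fell in MPTN. Of 37 of complex I, 0 rose and 3 fell at 24 h (1 and 6 without WT 1), and 1 rose and 6 fell in MPTN. Complex III gave 1 fall of 9 at 24 h and 3 in MPTN (3 and 4 without WT 1), and complex V 3 and 5 falls of 15, with 0 rises. Of 78 mitochondrial ribosomal proteins, 0 rose and 20 fell at 24 h, and 2 rose and 16 fell in MPTN, among them MRPL19 (-0.50 ± 0.10 and -0.70 ± 0.10, edgeR adjusted p = 0.0031 and 9.5e-05). Of all genes tested, 12.1% fell at 24 h and 18.1% in MPTN (14.4% and 18.7% without WT 1). The falls in MPTN among complex I subunits and among ribosomal proteins lay near the share of 18.1%. Among 13 translation factors 2 fell at 24 h, and 1 rose and 4 fell in MPTN. Among 17 aminoacyl-tRNA synthetases 3 fell at 24 h and 6 in MPTN, with 0 rises, MARS2 for methionine among them (-0.60 ± 0.12 in each, edgeR adjusted p = 0.0035 and 0.0014). Without WT 1, 2 synthetases rose at 24 h and 1 in MPTN, where 12.9% and 18.4% of all genes rose.

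**Figure D5:**
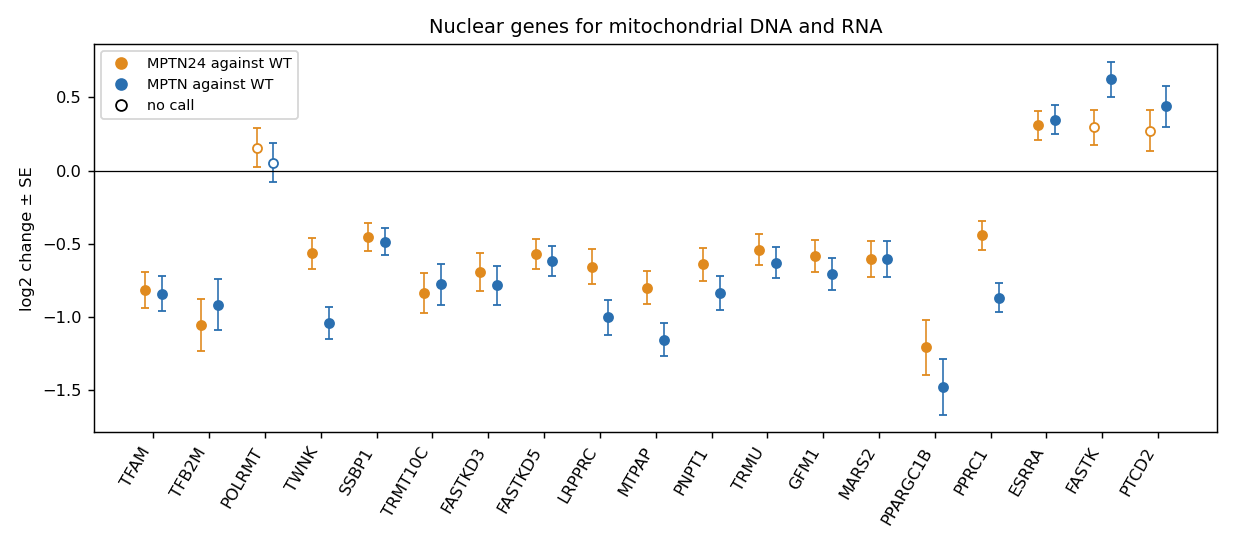
Log2 change ± SE (y axis) of 19 nuclear genes for mitochondrial DNA and RNA (x axis) at 24 h (orange) and in MPTN (blue) against WT; open symbols did not pass. The falls run from -0.44 for PPRC1 at 24 h to -1.48 for PPARGC1B in MPTN, while ESRRA (0.31 and 0.35), FASTK (0.62 in MPTN), PTCD2 (0.44 in MPTN) and POLRMT, which was not called, lie above 0.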

How the data were processed

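Per the labels' protocols, Trizol was used for extraction and the TruSeq RNA kit for the libraries. Tools named in the submitters' processing notes are CASAVA 1.8, Trimmomatic, FastQC, HISAT2, StringTie and edgeR with GRCh38; settings and strand use are not given in the sources used here. The deposited expected counts per gene (estimated counts, whole numbers) were used as they stand; the FPKM values deposited beside them, a unit inferred from the values, served as an alternative. Fragments per count are unknown.

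Genes passing filterByExpr (minimum count 10, minimum total 15) were fitted with edgeR 4.0.16, TMM scaling and the robust quasi-likelihood test over all 9 libraries, with Benjamini-Hochberg adjustment over all genes tested and a threshold of 0.05; SE is the log2 change over the square root of F. CPM are TMM-scaled. Shares and ratios used exact permutation tests over libraries. On simulated counts for MPTN24 against WT (16170 genes, 200 changed 2-fold), 63% were recovered with 4 false calls. For MPTN against WT it was 61.5% with 12 false calls, and for MPTN against MPTN24 59% with 6. Counts were drawn gene by gene from the fitted spread, so no simulated library stood apart as WT 1 did.

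Named were all protein and rRNA genes, tRNA rows with a mean of at least 1 CPM, and from each nuclear list up to 3 rises and 3 falls of largest change among genes of at least 5 CPM, with TFAM, POLRMT, LRPPRC and PNPT1. The members and lists were chosen with earlier results of these data known. Alternatives were RLE and upper-quartile scaling, scaling by nuclear genes, no filter and a stricter filter, a replicate block, only the 2 groups, DESeq2 1.42.0, limma 3.58.1 on log2(FPKM + 0.1) and log2(FPKM + 1), and each library left out; merging nuclear copies, other denominators of the within-mitochondrial shares, and list counts without WT 1 were added after seeing the data.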

Additional observations from a re-analysis of the deposited data

How the results depend on the processing

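Over the named genes, 2668 alternative values were computed, of which 2424 kept direction and side of the threshold, 142 lost a call, 57 gained one and 45 changed sign. Scaling choices, the stricter filter and merged nuclear copies kept each count of called mitochondrial genes within 1.5 times the reported one. Rises at 24 h numbered 3 with no filter (1572 of all 27978 genes) and 3 with only the 2 groups fitted (1556 of 16147). With a library left out they numbered 1 to 19 (1022 to 2286 of all genes), and falls 1 to 3 (935 to 2535). In MPTN against WT, rises numbered 2 both with no filter (2848 of all 27978 genes) and with only the 2 groups fitted (2654 of 16519). They numbered 7 in limma on log2(FPKM + 1) (3706 of 16990). With a library left out they numbered 1 to 10 (2468 to 3251 of all genes), and falls 3 to 7 (2441 to 3307). Falls in MPTN against MPTN24 numbered 12 with only the 2 groups (1671 of all 16405 genes) and 6 with DESeq2 (1579 of 16990). They numbered 6 with limma on log2(FPKM + 1) (639 of 16990), and 1 to 10 with a library left out (569 to 1732 of all genes). Differences in mitochondrial share ranged from 1.55 to 2.56, 1.09 to 2.10 and -0.658 to -0.313 points with a library left out. The cause was not tested.

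Most values that changed sign lay near 0. On the log2 scale, limma gave 0.027 and 0.026 for MT-TV at 24 h and, for MPTN against WT, 0.065 and 0.065 for MT-RNR2, 0.11 and 0.11 for MT-ND2, and 0.050 and 0.049 for MTND2P28. It gave 0.013 and 0.012 for MRPL42 at 24 h, where edgeR had called a fall, and 0.039 and 0.039 for MT-CO2 in MPTN against MPTN24. MT-ND2 in MPTN gave 0.047 with upper-quartile scaling and 0.002 with the replicate block, MT-CO2 against MPTN24 0.002 with no filter, and MT-TP at 24 h -0.001 with nuclear scaling and -0.012 with no filter. With all mitochondrial counts as denominator, log2 shares were 0.074 for MT-CO2, 0.045 for MT-ATP6 and 0.10 for MT-ND6 at 24 h, and 0.10 for MT-ATP6 and 0.056 for MT-ND5 in MPTN, and MT-ATP8 between treated groups gave -0.001 with copies added.

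Leaving out a library, log2 changes ran from -0.28 to 0.33 for MT-TV, -0.14 to 0.85 for MT-TL1, -0.21 to 0.11 for MT-ND1, -0.23 to 0.50 for MT-TD, -0.37 to 0.064 for MT-TT, -0.21 to 0.20 for MT-TP at 24 h. They ran from -0.18 to 0.15 for MT-RNR2, -0.79 to 0.21 for MT-TM, -0.15 to 0.16 for MT-ND2, -0.52 to 0.16 for MT-TY, -0.26 to 1.06 for MT-ND6, -0.19 to 0.12 for MTND2P28, -0.072 to 0.17 for POLRMT in MPTN against WT. They ran from -0.13 to 0.090 for MT-CO2, -0.14 to 0.20 for MT-ND3, -0.13 to 0.004 for MTATP6P1 in MPTN against MPTN24. Log2 shares of mitochondrial mRNA likewise ran from -0.009 to 0.43 for MT-TM, -0.33 to 0.039 for MT-ND5, -0.29 to 0.33 for MT-ND6 at 24 h. They ran from -0.13 to 0.17 for MT-ND4L, -0.26 to 0.11 for MT-ND5, -0.50 to 0.12 for MT-ND6 in MPTN against WT. They ran from -0.034 to 0.069 for MT-CO1, -0.067 to 0.059 for MT-ATP8 in MPTN against MPTN24.

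Same-numbered libraries correlated at -0.028 to 0.07 in their deviations from group means and others at -0.062 to 0.06. These values rest on 3 libraries a group and cannot show whether same-numbered samples share a culture or a day, which was not tested. With the replicate block, 7 mitochondrial genes rose and 3 fell at 24 h, 6 and 5 in MPTN, and 0 and 3 between them. Of all 16990 genes, 1951 rose and 2036 fell at 24 h, 3157 and 3026 in MPTN, and 1330 and 1173 between them. The tRNA rows rest on few counts.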
